A study of Homo sapiens with 6 samples.

Results

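Solute carriers are the membrane proteins that move sugars, ions, metals, lipids, vitamins and metabolites into and out of cells and organelles. The genes described here were the protein-coding genes of the deposited table whose symbol begins with SLC and a digit, without the amino acid carrier families SLC1, SLC3, SLC6, SLC7, SLC36, SLC38 and SLC43, and whose mean level across all 6 libraries was 10 or more. The name and type rules left 237 of the 16569 genes in the table, and 172 of these reached that mean. They were selected on that mean level, taken over both groups in normalized counts, the unit of the table.

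The samples were LX-2 cells, a single immortalised human hepatic stellate cell line labelled as wild type. Cells of 3 libraries received 100 ng/mL of IGFBP-7, which cells secrete and which belongs to the IGF binding proteins, for 24 h, and cells of 3 other libraries received phosphate-buffered saline (PBS) for the same time. Both groups had grown with 2% serum and had then been without serum for 18 h. The labels do not state separate cultures for the libraries of a group, so a p-value here reflects library-to-library spread that may be technical. The library kit was directional, but whether strand was used in counting is unknown here, so a gene cannot be told from an overlapping gene on the opposite strand.

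Carriers work in sets that follow their substrate. Glucose enters through facilitative GLUT proteins (SLC2) and leaves as lactate through monocarboxylate carriers (MCT, SLC16). Zinc is brought into the cytosol by ZIP proteins (SLC39) and taken out of it by ZnT proteins (SLC30). Chloride, bicarbonate, proton and calcium exchangers set cell volume, pH and calcium, and SLC25 proteins serve the inner mitochondrial membrane. Stellate cells are known for storing retinyl esters in lipid droplets and, once activated, for making large amounts of glycosylated and sulfated matrix, which draws on carriers of sugars, nucleotide sugars and sulfate.

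The table's values are normalized counts, which are read counts divided by a factor per library. Reads recovered from the values, summed over the genes of the table, were 45242993 to 55479940 in the IGFBP-7 libraries, against 40599380 to 43537923 in the PBS libraries. There were 2 reads for each sequenced fragment. Full sequencing depth, with reads outside those genes, is unknown here. Log2 changes are IGFBP-7 minus PBS on log2(normalized count + 1), which understates changes of weakly expressed genes, and stand with limma's standard error. A gene is called higher or lower at a Benjamini-Hochberg adjusted p under 0.05 over the 11872 genes tested. Stellate and myofibroblast markers were present, with 8 of 12 at a mean of at least 100 and COL1A1 leading, although DES, a defining gene of stellate cells, was at 4.09, 0 and 0 in the IGFBP-7 libraries and at 0 in each PBS library. Summed, that list ran from 254035 to 280219 in the IGFBP-7 libraries and from 87661 to 90271 in the PBS libraries, mostly from COL1A1 (means of 198928 with IGFBP-7 and 49614 with PBS). LUM (109 with IGFBP-7 and 354 with PBS), DCN (22.7 with IGFBP-7 and 33.6 with PBS) and RGS5 (152 with IGFBP-7 and 195 with PBS) had lower means with IGFBP-7. Hepatocyte markers summed to 217 to 255 with IGFBP-7 and 236 to 286 with PBS, nearly all from SERPINA1, with ALB, APOB and HNF4A at or under a mean of 3.46. Leukocyte markers summed to 1765 to 2058 with IGFBP-7 and 3371 to 3458 with PBS, mostly from CD68, which is also expressed in fibroblasts, while PTPRC stayed under a mean of 6 in both groups. Of that list, CD14 had means of 86 with IGFBP-7 and 399 with PBS, and CSF1R went against the sum, at 293 with IGFBP-7 and 56.5 with PBS. Endothelial markers summed to 219 to 257 with IGFBP-7 and 181 to 228 with PBS. The mean of PECAM1 was higher with IGFBP-7 (113 with IGFBP-7 and 61.5 with PBS). CDH5 (0 with IGFBP-7 and 9.72 with PBS) and STAB2 (15.5 with IGFBP-7 and 27.97 with PBS) went the other way. Epithelial markers summed to 1803 to 1885 with IGFBP-7 and 1357 to 1484 with PBS. Most came from SOX9 (means of 1193 with IGFBP-7 and 852 with PBS) and KRT7 (469.6 with IGFBP-7 and 399.6 with PBS). EPCAM, KRT19 and CDH1 were at or under a mean of 6.13 in both groups. The part of these markers in the results below was not tested. In such bulk samples fewer cells of a kind and less RNA per cell cannot be told apart.

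Carriers moved in both directions. With IGFBP-7, 59 of the 172 genes were higher, 60 were lower and 53 did not pass. Those shares, 34.3% and 34.9%, stand beside 31.3% higher and 29.2% lower among all genes tested, and the total of 69.2% called beside 60.6%. The median log2 change was -0.05 over the carriers and 0.02 over all genes tested. The 3 IGFBP-7 libraries did not overlap the 3 PBS libraries in 118 of the carriers, where the share among all genes tested was 63.5%. Changes of at least 2-fold were called in 16 carriers (9.30%), 7 higher and 9 lower, against 11.4% of all genes tested. The 7 were SLC17A9, SLC19A2, SLC2A1, SLC46A3, SLC49A3, SLC4A7 and SLC8A2, and the 9 were SLC16A12, SLC27A2, SLC2A14, SLC37A2, SLC45A1, SLC48A1, SLC8A1, SLC9A4 and SLC9A9. Among them SLC8A2 reached the mean of 10 only through its IGFBP-7 libraries and SLC9A4 only through its PBS libraries, so that their selection favoured a difference and their calls carry no support. The 10 most abundant genes took 8.42% to 9.07% of the values in the IGFBP-7 libraries and 4.49% to 4.66% in the PBS libraries, and the part of this in the results was not tested. Scaling to the library total moved the log2 change of all tested genes by a median of -0.14, and under it 42 carriers were higher and 68 lower. No called carrier changed sign under any of the 15 alternatives. Another gene covers more than 20% of the exonic bases of 16 carriers, and 18 have an antisense gene of the same name in the table, so their values are uncertain. Without the 16, 52 of 156 carriers were higher and 56 lower.

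**Figure D1:**
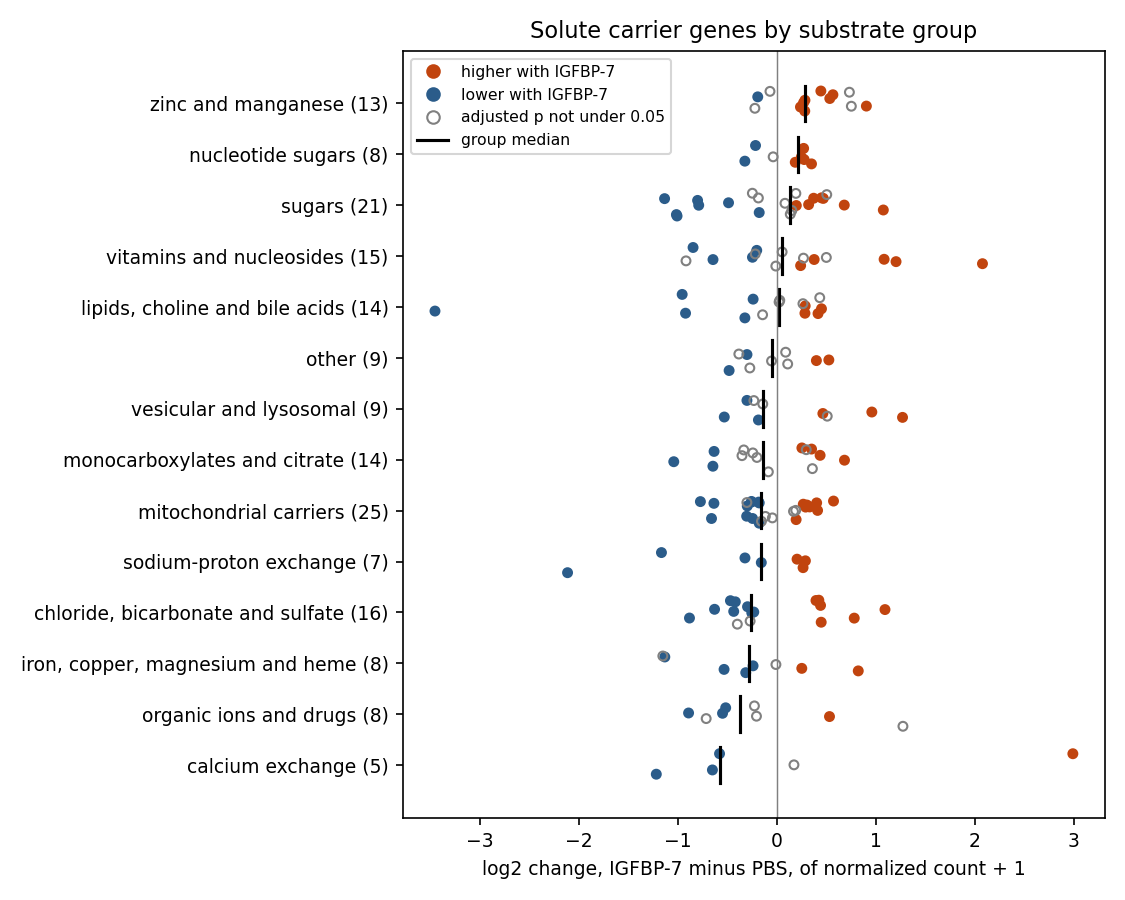
Log2 change (IGFBP-7 minus PBS, x axis) of each of the 172 carrier genes, by substrate group with the number of genes in parentheses, where filled dots passed the test and black bars are group medians. Zinc and manganese carriers lie mostly right of 0, with 8 higher and 1 lower, while SLC27A2 at -3.46 is the point farthest left. SLC8A2 at 2.99, farthest right, reached the mean of 10 only through its IGFBP-7 libraries.

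Among sugar carriers, 7 of 21 were higher, 7 lower and 7 did not pass (5 higher and 9 lower with scaling to the library total). The counts of this and each other substrate group stand beside 31.3% of all genes tested called higher and 29.2% called lower. SLC2A1, which encodes GLUT1, the basal glucose carrier of most cells, gave 6798, 6453 and 6574 normalized counts in the IGFBP-7 libraries, against 3082, 3095 and 3225 in the PBS libraries. All 3 IGFBP-7 values lay far above all 3 PBS values. Its log2 change was 1.08 ± 0.05 (adjusted p = 9.92e-24), a 2.11-fold rise. SLC2A3, which encodes the high-affinity carrier GLUT3, went the other way, with 1332, 1327 and 1276 normalized counts in the IGFBP-7 libraries, against 1894, 1768 and 1866 in the PBS libraries, a change of -0.49 ± 0.07 (adjusted p = 3.90e-08). Nearly identical sequence is shared by SLC2A3 and SLC2A14, so their values are uncertain. SLC2A14 itself gave 54.2, 62.7 and 71.3 normalized counts in the IGFBP-7 libraries, against 143, 146 and 126 in the PBS libraries, and its log2 change was -1.14 ± 0.22 (adjusted p = 1.22e-05). SLC2A4, the insulin-regulated GLUT4 gene, sat at the edge of the chosen set with 14.3, 16.9 and 4.13 normalized counts in the IGFBP-7 libraries, against 16.5, 1.96 and 8.54 in the PBS libraries, and the groups overlapped. SLC2A9, a urate carrier gene, changed by -0.80 ± 0.26, a call lost without IGFBP-7 replicate 2 (adjusted p = 0.0508). SLC2A12 had 0.37 ± 0.15, a call lost under 4 alternatives (adjusted p 0.0544 to 0.192), with 38.9% of its exonic bases shared with TBPL1 on the opposite strand.

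Levels of different genes were compared per kb of exon, with exon lengths from GENCODE release 29, which may differ from the annotation of the deposited table. That length counts all annotated exons of a gene, and the SD beside a level covers spread between libraries only. On that scale SLC2A1 stood at 1399 ± 37 with IGFBP-7 and 663 ± 16.7 with PBS (SD, n = 3 each), SLC2A3 at 213 ± 5.03 with IGFBP-7 and 299 ± 10.8 with PBS, and SLC2A13, the proton-coupled myo-inositol carrier gene, at 129 ± 8.51 with IGFBP-7 and 94.8 ± 13.3 with PBS. The order SLC2A1, SLC2A3, SLC2A13 was the same in both groups. These 3 levels were further apart than their SD, which does not cover error in exon length.

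Of the 4 genes of the SLC37 family, named for sugar phosphate exchange though not shown here for each member, 3 were lower and 1 higher. SLC37A2 gave 752, 663 and 622 normalized counts in the IGFBP-7 libraries, against 1438, 1351 and 1308 in the PBS libraries, a log2 change of -1.01 ± 0.08 (adjusted p = 6.60e-15). All 3 IGFBP-7 values lay far below the PBS values. SLC37A1 was also lower, with 338, 368 and 333 normalized counts in the IGFBP-7 libraries, against 563, 584 and 654 in the PBS libraries. For SLC37A4, the glucose 6-phosphate carrier gene, the change was -0.18 ± 0.07 (adjusted p = 0.0269), and the call was lost without any of 4 single libraries (adjusted p 0.0594 to 0.142). SLC37A3 had 0.20 ± 0.07 (adjusted p = 0.00965), which was lost with scaling to the library total (adjusted p = 0.494). SLC45A1, a proton-coupled sugar carrier gene, gave 86.9, 114 and 105 normalized counts in the IGFBP-7 libraries, against 215, 209 and 195 in the PBS libraries. Its family member SLC45A3 moved the other way and gave 805, 771 and 688 normalized counts in the IGFBP-7 libraries, against 460.3, 492 and 456 in the PBS libraries. The changes were -1.02 ± 0.18 for SLC45A1 and 0.68 ± 0.10 for SLC45A3, both called. Sodium-coupled SLC5A10 had a log2 change of 0.47 ± 0.13 and SLC5A2 one of 0.32 ± 0.08. Exons of GRAP cover 22.8% of the exonic bases of SLC5A10 and exons of C16orf58 31.1% of those of SLC5A2, in both cases on the opposite strand, so both values are uncertain.

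Monocarboxylate carriers were divided, with 4 of 14 genes of the lactate, citrate and sulfate group higher and 3 lower (3 and 4 with scaling to the library total). SLC16A1, which encodes MCT1, a carrier of lactate and pyruvate in both directions, gave 6421, 6117 and 6096 normalized counts in the IGFBP-7 libraries, against 3818, 3939 and 3844 in the PBS libraries. Its log2 change was 0.68 ± 0.05 (adjusted p = 2.55e-16), though a table row for the antisense gene SLC16A1-AS1 makes the value uncertain. SLC16A3, which encodes MCT4, the lactate exporter of glycolytic cells, gave 10535, 10240.3 and 9848 normalized counts in the IGFBP-7 libraries, against 8039, 7949.5 and 8027 in the PBS libraries, a change of 0.35 ± 0.05. The dicarboxylate carrier gene SLC13A3 had 0.25 ± 0.10, a call lost under 5 alternatives (adjusted p 0.052 to 0.366). SLC16A7, which encodes the high-affinity MCT2, gave 551, 625 and 586 normalized counts in the IGFBP-7 libraries, against 789, 1067 and 923 in the PBS libraries. SLC16A4, of the same family, gave 457, 527 and 379 normalized counts in the IGFBP-7 libraries, against 615, 715 and 781 in the PBS libraries. Their changes were -0.65 ± 0.10 and -0.64 ± 0.11, both past the threshold, and no library of either group reached the range of the other. Per kb of exon, SLC16A1 stood at 1169 ± 34.2 with IGFBP-7 and 728 ± 12 with PBS and SLC16A3 at 1135 ± 38.3 with IGFBP-7 and 890.0 ± 5.40 with PBS. On these exon lengths, the 2 levels were within their SD of each other with IGFBP-7, and that of SLC16A3 was higher with PBS. The SD does not cover error in exon length, so the order of the 2 genes is uncertain.

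**Figure D2:**
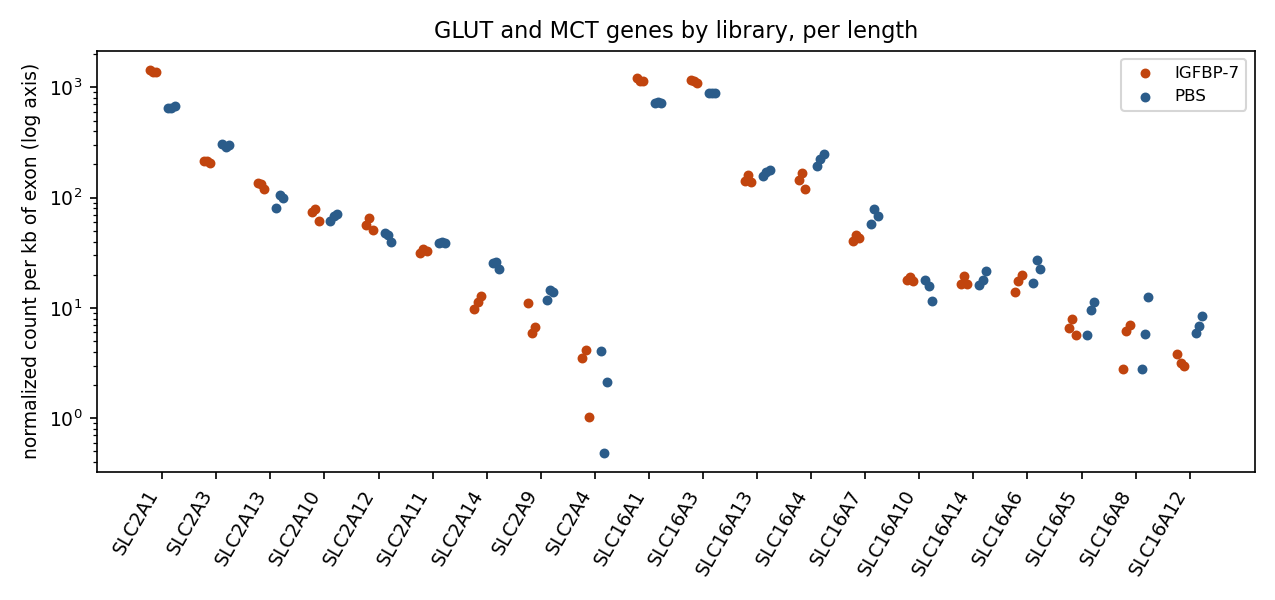
Normalized counts per kb of exon (log axis) of SLC2A and SLC16A genes in the 3 IGFBP-7 libraries and the 3 PBS libraries, ordered within each family by the IGFBP-7 mean. SLC2A1, SLC16A1 and SLC16A3 lie highest, with IGFBP-7 means of 1399, 1169 and 1135 per kb, and the SLC2A3, SLC2A14, SLC16A4 and SLC16A7 points are lower with IGFBP-7.

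Genes that handle the same sugars and lactate, and are not carriers of this set, were listed separately. Each such list is small, and its counts stand beside 31.3% of all genes tested called higher and 29.2% called lower. All 6 tested genes of the glucose handling list passed, 5 higher and 1 lower. PFKFB3, which makes the activator of glycolytic phosphofructokinase, was at 4826 ± 58.2 normalized counts with IGFBP-7 and 2583 ± 105 with PBS, and PFKFB4 of the same family at 1723 ± 129.9 normalized counts with IGFBP-7 and 929.7 ± 26.6 with PBS (SD, n = 3 each). TXNIP, known for driving GLUT1 off the cell surface, was the lower gene, at 1317 ± 72.3 normalized counts with IGFBP-7 and 2169 ± 49.4 with PBS. In the lactate list 3 of 4 tested genes were higher, among them LDHA at 40053 ± 1020.4 normalized counts with IGFBP-7 and 25127 ± 584 with PBS and EMB, a chaperone of MCT proteins, at 1802 ± 80.2 normalized counts with IGFBP-7 and 1063 ± 88.9 with PBS. The lower gene was MPC2, a subunit of the mitochondrial pyruvate carrier.

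The transcription start windows of SLC2A1, SLC30A1 and SLC46A3 are shown because they belong to called carriers of glucose, of zinc and of the lysosomal membrane that have a single start in the RefSeq table of build GRCh38.p14. Each runs from 250 bases before the start to 50 bases after it, on the gene's strand, at chr1:42958819-42959118 for SLC2A1, chr1:211579112-211579411 for SLC30A1 and chr13:28718921-28719220 for SLC46A3, all on the minus strand. Capitals mark matches, on either strand, to CCAAT (the box bound by NF-Y), the TATA form TATAAA, the metal response pattern TGCACNC with its variant TGCGCNC, the hypoxia core ACGTG, or the AP-1 pattern TGANTCA, and no marked matches overlap.
SLC2A1: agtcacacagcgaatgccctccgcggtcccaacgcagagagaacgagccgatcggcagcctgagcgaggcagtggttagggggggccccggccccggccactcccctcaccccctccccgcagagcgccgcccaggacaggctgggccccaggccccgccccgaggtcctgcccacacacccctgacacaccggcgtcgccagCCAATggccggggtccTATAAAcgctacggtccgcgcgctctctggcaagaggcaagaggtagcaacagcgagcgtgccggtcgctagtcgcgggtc
SLC30A1: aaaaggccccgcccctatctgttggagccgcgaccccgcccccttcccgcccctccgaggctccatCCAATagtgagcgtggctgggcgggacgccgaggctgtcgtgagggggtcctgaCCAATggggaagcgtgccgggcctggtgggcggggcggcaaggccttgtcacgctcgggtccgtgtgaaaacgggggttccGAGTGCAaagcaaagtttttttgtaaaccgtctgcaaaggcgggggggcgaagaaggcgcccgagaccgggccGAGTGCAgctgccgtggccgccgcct
SLC46A3: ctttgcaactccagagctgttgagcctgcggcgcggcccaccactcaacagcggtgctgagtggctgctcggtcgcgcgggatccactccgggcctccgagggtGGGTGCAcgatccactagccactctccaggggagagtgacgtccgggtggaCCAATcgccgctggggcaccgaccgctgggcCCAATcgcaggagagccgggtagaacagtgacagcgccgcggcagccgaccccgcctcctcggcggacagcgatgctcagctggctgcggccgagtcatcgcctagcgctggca
SLC2A1 has a TATAAA match 31 bases and a CCAAT match 47 bases before the start. SLC30A1 has TGCACNC matches 49 bases before and 25 bases after the start, and CCAAT matches at 184 and 130 bases before it. SLC46A3 has a TGCACNC match 146 bases before the start and CCAAT matches at 95 and 64 bases. These are letter matches and describe no binding.

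Of the 172 carriers, 137 matched the RefSeq table. TGCACNC or TGCGCNC occurred in a window of 42.3% of them, against 33.4% of the 27305 genes of that table. Higher carriers had it in 19 of 49, lower carriers in 23 of 47 and carriers that did not pass in 16 of 41. CCAAT occurred in 26 of 49 higher and 18 of 47 lower carriers, against 39.7% of all genes of the table. ACGTG occurred in 28.5% of the matched carriers and 24.9% of all genes, TGANTCA in 8.03% and 9.37%, and TATAAA in 9.49% and 14%. Genes with several start windows have more chances of a match, and no test was made of these shares.

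Zinc carriers were mostly higher, with 8 of 13 genes up, 1 down and 4 not passing. Among all genes tested, 31.3% were higher and 29.2% lower. The median log2 change was 0.28 over the zinc carriers and 0.02 over all genes tested. With scaling to the library total, 6 zinc carriers were higher and 3 lower. SLC39A14, which encodes ZIP14, a carrier of zinc, manganese and iron that is abundant in liver, gave 14469.9, 13520.2 and 13317 normalized counts in the IGFBP-7 libraries, against 7509, 7017 and 7534 in the PBS libraries. Its log2 change was 0.90 ± 0.05 (adjusted p = 9.59e-23), a 1.87-fold rise, with the groups far apart. SLC39A7, which encodes ZIP7, the carrier that releases zinc from the endoplasmic reticulum, gave 11453, 10687 and 10825 normalized counts in the IGFBP-7 libraries, against 7993, 7992 and 8232 in the PBS libraries, a change of 0.44 ± 0.05. By contrast SLC39A8, which encodes ZIP8, the closest relative of ZIP14, gave 2030.2, 2233 and 2015 normalized counts in the IGFBP-7 libraries, against 2299, 2362 and 2519 in the PBS libraries. Its small change of -0.19 ± 0.06 (adjusted p = 0.00867) was lost as a call without PBS replicate 3 (adjusted p = 0.0673).

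All 3 called ZnT genes were higher. SLC30A1, which encodes ZnT1, the zinc exporter of the plasma membrane and a known target of the metal-responsive factor MTF1, gave 2235, 2246 and 2179 normalized counts in the IGFBP-7 libraries, against 1407, 1529 and 1566 in the PBS libraries. Its change was 0.57 ± 0.07 (adjusted p = 3.82e-10). SLC30A7, a zinc carrier gene of the Golgi, gave 2514, 2798 and 2705 normalized counts in the IGFBP-7 libraries, against 1800.0, 1865 and 1864 in the PBS libraries. SLC30A5, which loads zinc into the same secretory pathway, gave 5174, 4808 and 4828 normalized counts in the IGFBP-7 libraries, against 3839.9, 4219.8 and 4112 in the PBS libraries. The rises, 0.53 ± 0.06 for SLC30A7 and 0.28 ± 0.05 for SLC30A5, had no overlap between groups. Smaller rises were called in SLC39A6 (0.28 ± 0.05), SLC39A10 (0.27 ± 0.07) and SLC39A9 (0.24 ± 0.05), of which those of SLC39A10 (adjusted p = 0.123) and SLC39A9 (adjusted p = 0.0798) were lost with scaling to the library total. SLC39A11 and SLC30A4 did not pass, at -0.22 ± 0.11 and -0.07 ± 0.09, and under that scaling both were called lower (adjusted p = 0.00345 and 0.0451).

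Per kb of exon, SLC39A7 had the highest level of the zinc carriers, 3862 ± 144 with IGFBP-7 and 2837 ± 48.6 with PBS (SD, n = 3 each). SLC39A14 at 1983 ± 88.7 with IGFBP-7 and 1059 ± 42 with PBS and SLC39A6 at 1980.1 ± 41.3 with IGFBP-7 and 1629 ± 47.4 with PBS came next. On these exon lengths, the last 2 were within their SD of each other with IGFBP-7, and SLC39A6 was higher with PBS. The SD does not cover error in exon length, so this order is uncertain. Among zinc-binding proteins outside the carrier family, 3 of 5 tested genes were higher and none lower. MT1X, a metallothionein gene, was at 1059.8 ± 182 normalized counts with IGFBP-7 and 393 ± 37.7 with PBS, and MT2A at 10669 ± 743 normalized counts with IGFBP-7 and 7939 ± 266 with PBS, both uncertain because metallothionein genes are close paralogs. MTF1 had a log2 change of 0.19 ± 0.07. The metallothionein genes MT1F (0.14 ± 0.13, adjusted p = 0.382) and MT1M (0.01 ± 0.19, adjusted p = 0.962) did not pass.

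**Figure D3:**
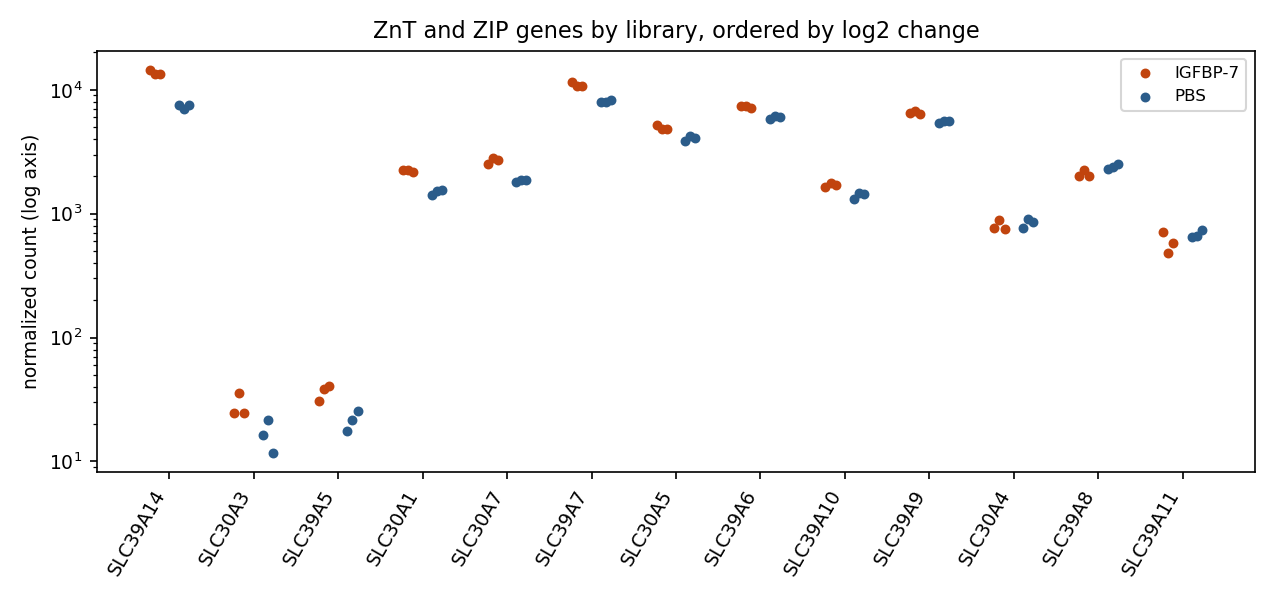
Normalized counts (log axis) of the 13 ZnT and ZIP genes in the 3 IGFBP-7 and the 3 PBS libraries, ordered by log2 change from highest to lowest. The IGFBP-7 points of SLC39A14 lie at 13317 to 14470 and its PBS points at 7017 to 7534, while SLC39A8 near the right end is slightly lower with IGFBP-7.

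Iron, copper, magnesium and heme carriers had 2 of 8 genes higher and 4 lower (1 and 4 with scaling to the library total). SLC48A1, which encodes the heme carrier HRG1 of endosomes and lysosomes, gave 634, 561 and 546 normalized counts in the IGFBP-7 libraries, against 1249, 1254 and 1312 in the PBS libraries. No IGFBP-7 value came near the PBS range, and the change was -1.13 ± 0.09 (adjusted p = 2.18e-16). Magnesium carriers of the SLC41 family went apart. SLC41A2 gave 1654, 1618 and 1566 normalized counts in the IGFBP-7 libraries, against 863, 893 and 983 in the PBS libraries, a change of 0.82 ± 0.08. SLC41A3, a mitochondrial carrier gene, gave 1746, 1679 and 1786 normalized counts in the IGFBP-7 libraries, against 2623, 2461 and 2468 in the PBS libraries, a change of -0.53 ± 0.06. SLC41A1, the carrier gene of the plasma membrane, was also lower, at -0.24 ± 0.06. SLC31A1, which encodes the copper importer CTR1, changed by 0.25 ± 0.06, a call lost with scaling to the library total (adjusted p = 0.123). SLC40A1, which encodes the iron exporter ferroportin, gave 248, 207 and 254 normalized counts in the IGFBP-7 libraries, against 285, 335 and 264 in the PBS libraries. Its change of -0.32 ± 0.14 (adjusted p = 0.0476) was lost under 7 alternatives (adjusted p 0.0502 to 0.239).

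In the list of iron and copper handling genes, 5 of 13 tested were higher and 6 lower, beside 31.3% and 29.2% of all genes tested. The ferritin heavy chain gene FTH1 was at 79213 ± 2997 normalized counts with IGFBP-7 and 118892 ± 1891 with PBS, the transferrin receptor gene TFRC at 19837 ± 477 normalized counts with IGFBP-7 and 15541 ± 167 with PBS, and the metalloreductase gene STEAP2 at 221 ± 16.7 normalized counts with IGFBP-7 and 78.4 ± 23.9 with PBS. Ferritin was lower and the receptor higher, each by less than 2-fold.

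Chloride, bicarbonate and sulfate carriers were called in 14 of 16 cases (87.5%), beside 60.6% of all genes tested. The called carriers were 6 higher and 8 lower, with the same counts under scaling to the library total. SLC4A7, which encodes the sodium bicarbonate cotransporter NBCn1, gave 5111, 5256 and 5191 normalized counts in the IGFBP-7 libraries, against 2159, 2499 and 2662 in the PBS libraries. It was 2.13-fold higher, a log2 change of 1.09 ± 0.06 (adjusted p = 1.65e-21). SLC26A2, the sulfate carrier gene whose loss impairs proteoglycan sulfation in cartilage, gave 2601, 2954 and 2746 normalized counts in the IGFBP-7 libraries, against 1508, 1553 and 1772 in the PBS libraries, a change of 0.78 ± 0.07. SLC4A2, which encodes the anion exchanger AE2, gave 22488, 21504 and 21813 normalized counts in the IGFBP-7 libraries, against 16165, 15885 and 16193 in the PBS libraries, a change of 0.45 ± 0.04. Lower genes included SLC4A4, which encodes the cotransporter NBCe1, with 243, 215 and 198 normalized counts in the IGFBP-7 libraries, against 316, 385 and 318 in the PBS libraries. SLC12A5, which encodes the potassium chloride cotransporter KCC2 of neurons, gave 49.1, 53.4 and 86.8 normalized counts in the IGFBP-7 libraries, against 104, 108 and 130.3 in the PBS libraries. Their changes were -0.63 ± 0.14 and -0.88 ± 0.24, and the groups stayed apart in both. SLC12A9, a member of the cation-chloride family, changed by -0.47 ± 0.06. Further called genes of the group were SLC4A5, SLC12A8 and SLC26A6, higher by 0.40 to 0.44, and SLC4A8, SLC4A11, SLC26A1 and SLC26A11, which had changes of -0.44 to -0.23. Of these, SLC26A1 lost the call without PBS replicate 1 (adjusted p = 0.349) and SLC4A11 without any of 3 single libraries (adjusted p 0.0601 to 0.268). Exons of another gene on the same strand cover 47.5% of the exonic bases of SLC4A5, so its value is uncertain.

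All 7 sodium-proton exchanger genes were called, beside 60.6% of all genes tested. They were 3 higher and 4 lower (1 and 4 with scaling to the library total). The call of SLC9A4 carries no support, and the groups overlapped in SLC9A3 and SLC9B2, which lost the call under at least 1 alternative. SLC9A9, which encodes the endosomal exchanger NHE9, gave 228, 212 and 208 normalized counts in the IGFBP-7 libraries, against 483, 448 and 529.8 in the PBS libraries, a log2 change of -1.17 ± 0.12 (adjusted p = 1.63e-11). Antisense rows SLC9A9-AS1 and SLC9A9-AS2 make that value uncertain. SLC9A8, a Golgi exchanger gene, changed by -0.32 ± 0.07, and SLC9B1 by 0.20 ± 0.08, a call lost under scaling to the library total (adjusted p = 0.506) and without either of 2 libraries. At low level, SLC9A4 gave 8.18, 1.69 and 5.17 normalized counts in the IGFBP-7 libraries, against 19.6, 15.7 and 35.2 in the PBS libraries, and was selected only through the PBS group. Regulators of sodium and chloride transport outside the family included WNK4, a kinase gene, at 999 ± 105 normalized counts with IGFBP-7 and 2255 ± 117 with PBS, and SGK1, a kinase gene induced by serum and steroids, at 2157 ± 145 normalized counts with IGFBP-7 and 3348 ± 122 with PBS. They were the 2 lower genes among 4 tested in that list.

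Calcium exchangers fell in 3 of 5 cases, beside 29.2% of all genes tested, and the 1 higher gene was SLC8A2. SLC8A1, which encodes the sodium-calcium exchanger NCX1, gave 495, 385 and 443 normalized counts in the IGFBP-7 libraries, against 954, 1064 and 1057 in the PBS libraries. The groups lay far apart, a change of -1.22 ± 0.10 (adjusted p = 1.29e-15), uncertain because the table also holds the antisense gene SLC8A1-AS1. SLC8B1, which encodes the mitochondrial exchanger NCLX, gave 2023, 1939 and 2096 normalized counts in the IGFBP-7 libraries, against 3318, 3059 and 3149 in the PBS libraries, a change of -0.65 ± 0.06. SLC24A5 changed by -0.58 ± 0.11, but exons of MYEF2, itself changed by -0.97 ± 0.06, cover 32.9% of its exonic bases. SLC8A2, which encodes NCX2 of neurons, gave 35.8, 26.3 and 31 normalized counts in the IGFBP-7 libraries, against 6.18, 7.86 and 0 in the PBS libraries, and was selected only through the IGFBP-7 group. In a list of 7 calcium pump and calcium entry genes, 4 were tested and all 4 were lower, where 29.2% of all genes tested were. ATP2B4, a plasma membrane calcium pump gene, was at 3321 ± 198 normalized counts with IGFBP-7 and 5150.1 ± 106 with PBS. ATP2B1 of the same family was at 7369 ± 376 normalized counts with IGFBP-7 and 10707 ± 184 with PBS. The others, STIM1 (-0.46 ± 0.06) and ORAI1 (-0.26 ± 0.07), do not encode pumps.

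The fall of SLC27A2 was the largest change among the carriers. SLC27A2, which encodes FATP2, a fatty acid carrier and very long chain acyl-CoA synthetase known from liver and kidney, gave 26.6, 30.5 and 13.4 normalized counts in the IGFBP-7 libraries, against 252, 275 and 237 in the PBS libraries. The highest IGFBP-7 value, 30.5, stood far under the lowest PBS value, 237, with a log2 change of -3.46 ± 0.26 (adjusted p = 6.65e-17). Exons of ATP8B4 cover 19.9% of the exonic bases of SLC27A2, on the opposite strand, and ATP8B4 was at 10.9 ± 6.14 normalized counts with IGFBP-7 and 102 ± 22.5 with PBS, a change of -3.23 ± 0.38. SLC27A6, which encodes FATP6, gave 93, 60.1 and 45.5 normalized counts in the IGFBP-7 libraries, against 122, 121 and 130.3 in the PBS libraries, a change of -0.96 ± 0.23. SLC27A4, which encodes FATP4, was higher by 0.29 ± 0.06. SLC27A1, which encodes FATP1, gave 606, 541 and 484 normalized counts in the IGFBP-7 libraries, against 719.8, 556 and 655 in the PBS libraries, with overlapping groups, and its call (adjusted p = 0.044) was lost under 6 alternatives (adjusted p 0.0629 to 0.256).

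Lipid, choline and bile acid carriers together had 4 of 14 genes higher and 5 lower, with the same counts under scaling to the library total. Choline carriers of the SLC44 family differed, as SLC44A1 changed by 0.28 ± 0.06, SLC44A2 by -0.32 ± 0.05 and SLC44A3 by -0.92 ± 0.23. SLC44A3 gave 55.2, 63.5 and 69.2 normalized counts in the IGFBP-7 libraries, against 123, 98.2 and 141 in the PBS libraries. SLC33A1, which encodes the acetyl-CoA carrier of the endoplasmic reticulum, and SLC10A3, a gene of the bile acid carrier family, were higher by 0.42 ± 0.07 and 0.45 ± 0.06, the first with 21.1% of its exonic bases shared with another gene on the same strand. In the list of fatty acid uptake and activation genes, 3 of 10 were higher, 3 lower and 4 did not pass. The endocytic receptor gene LRP1 was at 37282 ± 2404 normalized counts with IGFBP-7 and 22247 ± 1337 with PBS and the acyl-CoA synthetase gene ACSL5 at 489 ± 39.9 normalized counts with IGFBP-7 and 865 ± 23.6 with PBS.

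Organic ion carriers had 1 of 8 genes higher and 3 lower. SLC22A18 gave 367, 401 and 395 normalized counts in the IGFBP-7 libraries, against 740.4, 704 and 718 in the PBS libraries, a change of -0.89 ± 0.10 (adjusted p = 9.51e-11). SLC22A5, which encodes the carnitine carrier OCTN2, gave 641, 582 and 587 normalized counts in the IGFBP-7 libraries, against 862, 846 and 944 in the PBS libraries. SLC22A4, which encodes its relative OCTN1, gave 819, 772 and 876 normalized counts in the IGFBP-7 libraries, against 1191, 1211 and 1130.0 in the PBS libraries. The changes were -0.55 ± 0.09 and -0.52 ± 0.08, and neither pair of groups overlapped. SLC22A17, which encodes a receptor for lipocalin-2, was the higher gene, at 0.53 ± 0.08.

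Nucleotide sugar and related carriers of the Golgi and endoplasmic reticulum showed small changes, none of 2-fold, with 5 of 8 genes higher and 2 lower. Scaling to the library total left 1 higher and made 3 lower, so that the upward direction of the group depends on that choice. SLC35B1, which encodes the ATP carrier of the endoplasmic reticulum, was the gene still higher, with 3525, 3157 and 3472 normalized counts in the IGFBP-7 libraries, against 2536, 2598 and 2833 in the PBS libraries and a change of 0.35 ± 0.06. SLC35A2, which encodes the UDP-galactose carrier, changed by 0.28 ± 0.06 (adjusted p = 0.0618 under that scaling), and SLC35B3, a carrier gene for the sulfate donor PAPS, by 0.27 ± 0.09 (adjusted p = 0.204). SLC35D1, a UDP-glucuronic acid carrier gene, changed by 0.25 ± 0.08 (adjusted p = 0.24) and SLC35C1, the GDP-fucose carrier gene, by 0.19 ± 0.07 (adjusted p = 0.599), the last also lost without either of 2 single libraries. The lower genes were SLC35D2, at -0.32 ± 0.07, and SLC35A5, at -0.22 ± 0.06, and 46.8% of the exonic bases of SLC35D2 are shared with another gene on the same strand. Of the 6 tested genes that supply such donors, 5 were higher and 1 lower. GFPT2, an enzyme gene of hexosamine synthesis, was at 8573 ± 322 normalized counts with IGFBP-7 and 3635 ± 162 with PBS, and UGDH, which makes UDP-glucuronic acid, at 3998 ± 57 normalized counts with IGFBP-7 and 3164 ± 6.97 with PBS.

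Mitochondrial carriers were the largest group, with 8 of 25 genes higher and 11 lower (5 and 12 with scaling to the library total), none by 2-fold. Without IGFBP-7 replicate 3, 6 were lower, and without PBS replicate 3, 7. SLC25A29, a carrier gene for basic amino acids, gave 1754, 1685 and 1603 normalized counts in the IGFBP-7 libraries, against 2852, 3002 and 2769 in the PBS libraries, a change of -0.77 ± 0.06 (adjusted p = 4.87e-15). SLC25A27, which encodes the uncoupling protein UCP4, gave 151, 185 and 167 normalized counts in the IGFBP-7 libraries, against 228, 273 and 301 in the PBS libraries, a change of -0.66 ± 0.15. SLC25A32, which encodes the folate and FAD carrier, gave 1350.4, 1468 and 1302 normalized counts in the IGFBP-7 libraries, against 873, 889 and 1010.4 in the PBS libraries. Its rise of 0.57 ± 0.08 is uncertain because exons of another GENCODE gene on the same strand cover 69.7% of its exonic bases. SLC25A13, which encodes the aspartate-glutamate carrier citrin, was higher by 0.41 ± 0.06, and SLC25A37, which encodes the iron carrier mitoferrin-1, by 0.30 ± 0.05. SLC25A1, the citrate carrier gene, gave 5663, 5370.0 and 5172 normalized counts in the IGFBP-7 libraries, against 6621, 6415 and 6307 in the PBS libraries, a change of -0.26 ± 0.05. SLC25A4, which encodes the adenine nucleotide carrier ANT1, changed by -0.18 ± 0.08, and the call was lost under 6 alternatives (adjusted p 0.0514 to 0.157). SLC25A53 changed by 0.40 ± 0.15 and SLC25A21 by -0.64 ± 0.25. Exons of SLC25A21-AS1, itself changed by -1.29 ± 0.43, cover 15.8% of the exonic bases of SLC25A21, on the opposite strand. The other called genes were SLC25A16, SLC25A17, SLC25A36 and SLC25A46, higher by 0.19 to 0.33, and SLC25A20, SLC25A22, SLC25A23, SLC25A30, SLC25A35 and SLC25A42, with changes of -0.31 to -0.18. Exons of RANGRF cover 33.2% of the exonic bases of SLC25A35, on the opposite strand, so its value is uncertain. Under at least 1 alternative, 7 of the 11 lower genes lost the call (SLC25A4, SLC25A20, SLC25A21, SLC25A22, SLC25A23, SLC25A35 and SLC25A42), as did 3 of the 8 higher genes (SLC25A16, SLC25A17 and SLC25A53).

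Vitamin and nucleoside carriers included SLC46A3, with the largest rise among carriers whose mean was 10 or more in both groups. SLC46A3, which encodes a carrier of the lysosomal membrane, gave 3398, 2997 and 2857 normalized counts in the IGFBP-7 libraries, against 781, 681 and 724 in the PBS libraries. The groups lay far apart, with a log2 change of 2.08 ± 0.08 (adjusted p = 1.38e-29), a 4.22-fold rise. SLC19A2, which encodes a thiamine carrier, gave 526, 533 and 537 normalized counts in the IGFBP-7 libraries, against 218, 261 and 276 in the PBS libraries, a change of 1.08 ± 0.12 (adjusted p = 4.88e-11). SLC19A1, the reduced folate carrier gene, changed by 0.24 ± 0.05, lost with scaling to the library total (adjusted p = 0.0661). Nucleoside carriers went both ways. They were lower in SLC29A2 (-0.65 ± 0.17) and SLC29A1 (-0.20 ± 0.06), and in SLC28A3 (-0.85 ± 0.27), where the call was lost without PBS replicate 1 (adjusted p = 0.0753). SLC29A4 was called higher, with 692, 733 and 591 normalized counts in the IGFBP-7 libraries, against 453, 511 and 592 in the PBS libraries. Its groups overlapped, and the call was not kept under all alternatives. SLC29A3 gave 106, 83 and 113 normalized counts in the IGFBP-7 libraries, against 74.1, 60.9 and 76.9 in the PBS libraries, but did not pass. SLC23A2, a vitamin C carrier gene, was lower, at -0.25 ± 0.06. The group had 5 of 15 genes higher and 4 lower (3 and 4 with scaling to the library total).

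Vesicular and lysosomal carriers had 3 of 9 genes higher and 3 lower (3 and 4 with scaling to the library total). SLC17A9, which encodes VNUT, the carrier that loads ATP into secretory vesicles, gave 2345, 2203 and 2433 normalized counts in the IGFBP-7 libraries, against 986, 956 and 948 in the PBS libraries. Every IGFBP-7 value was more than 2 times any PBS value, a change of 1.27 ± 0.07 (adjusted p = 1.72e-21). SLC18A2, which encodes the monoamine carrier VMAT2, gave 245, 325 and 288 normalized counts in the IGFBP-7 libraries, against 194, 134 and 119.6 in the PBS libraries, but exons of PDZD8 cover 52% of its exonic bases. SLC18B1, a vesicular polyamine carrier gene, was higher by 0.46 ± 0.11. SLC66A3 and SLC15A3, a peptide and histidine carrier gene of lysosomes, were lower, at -0.53 ± 0.10 and -0.30 ± 0.07. The sialic acid exporter gene SLC17A5 had -0.19 ± 0.08, lost under 5 alternatives (adjusted p 0.0533 to 0.153). Among the SLC35E, SLC35F and SLC35G genes, SLC35F2 and SLC35E1 were higher by 0.53 ± 0.07 and 0.40 ± 0.06, and SLC35E2B and SLC35F6 lower, at -0.48 ± 0.06 and -0.30 ± 0.06. The value of SLC35E2B is uncertain because of a nearly identical paralog.

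**Figure D4:**
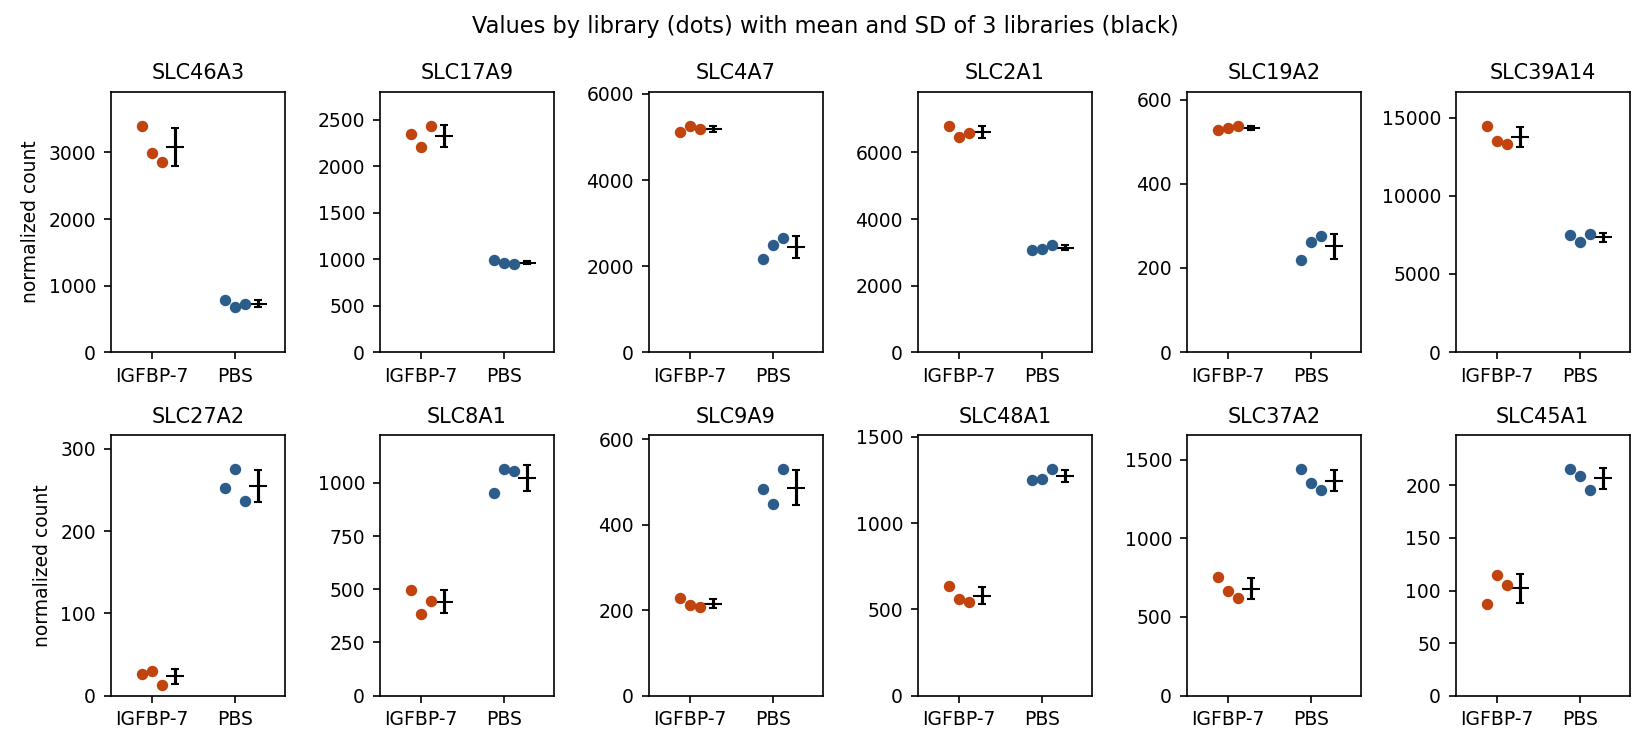
Normalized counts of 6 higher carriers (top row) and 6 lower carriers (bottom row) in each IGFBP-7 and PBS library, with mean and SD (n = 3 each) in black and axes from 0. In all 12 genes the groups do not overlap, from SLC46A3 at 2857 to 3398 with IGFBP-7 and 681 to 781 with PBS, to SLC27A2 at 13.4 to 30.5 with IGFBP-7 and 237 to 275 with PBS.

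The 53 carriers that did not pass included 5 in which the groups did not overlap, SLC15A2, SLC29A3, SLC2A11, SLC30A3 and SLC39A5. Overlapping groups occurred in 6 called carriers, SLC25A35, SLC26A1, SLC27A1, SLC29A4, SLC9A3 and SLC9B2, each of which lost the call under at least 1 alternative. SLC16A12, a creatine carrier gene at low level, gave 18.4, 15.2 and 14.5 normalized counts in the IGFBP-7 libraries, against 28.8, 33.4 and 40.6 in the PBS libraries, a change of -1.04 ± 0.42 that was lost under 5 alternatives (adjusted p 0.0542 to 0.112). SLC49A3 gave 63.4, 42.3 and 42.4 normalized counts in the IGFBP-7 libraries, against 26.8, 15.7 and 20.3 in the PBS libraries, a change of 1.20 ± 0.37. Just inside the mean of 10 were SLC11A1 with 2.04, 3.39 and 10.3 in the IGFBP-7 libraries and 30.9, 3.93 and 9.61 in the PBS libraries, and SLC5A4 with 7.16, 8.47 and 17.6 in the IGFBP-7 libraries and 11.3, 5.89 and 11.7 in the PBS libraries. Just outside it was SLC39A4 with 11.2, 3.39 and 11.4 in the IGFBP-7 libraries and 8.24, 17.7 and 7.48 in the PBS libraries. SLC34A3 came next, with 18.4, 6.77 and 6.20 in the IGFBP-7 libraries and 8.24, 14.7 and 4.27 in the PBS libraries. Below it was SLC22A2, which encodes the organic cation carrier OCT2, with 14.3, 16.9 and 26.9 in the IGFBP-7 libraries and 0 in each PBS library. The mean of SLC22A2 with IGFBP-7, 19.4, was 6.29 times the level of 3 fragments per PBS library, 3.08 normalized counts. That ratio leaves out the spread between the IGFBP-7 libraries. The main test did not include SLC22A2, as its mean was under 10. Apart from SLC22A2, the genes under the mean of 10 reached at most 23.7 normalized counts in any library, and 17 of the 65 had a mean under 1. SLC5A3, SLC11A2, SLC12A2, SLC20A1, SLC20A2, SLC25A5, SLC25A6, SLC27A3 and SLC35B2 were not analysed here.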

How the data were processed

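The authors deposited 1 table with 1 value per gene and library, normalized counts per the file headers, a signal on a linear scale. The submitters' processing notes name STAR, Subread, featureCounts and DESeq2 and give neither versions nor roles. Build, annotation release and strand setting were not stated. In every library 100% of the values lay within 0.01 of a whole multiple of 1 step, from which read counts were recovered. All 6 libraries entered. Chi-square of fragments per degree of freedom between libraries of a group was 5.27 to 7.23, a spread beyond fragment counting alone. No limit was set on it.

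Limma-trend (limma 3.58.1 in R 4.3.3) was run on log2(normalized count + 1) of the 11872 genes with a mean of 10 or more, two-sided, with Benjamini-Hochberg adjustment. EdgeR, planned for raw counts, became an alternative on recovered reads (edgeR 4.0.16), as did DESeq2 1.42.0. The members, lists and tests were chosen with earlier results of these data known. Carriers were placed by family into 14 substrate groups. A rule named 73 of them: up to 3 rises and 3 falls per group with non-overlapping libraries and a mean of at least 50 in a treatment group, plus a list of well-known carriers. The others described were chosen after their values were seen. Some carriers the rule named are counted but not reported here by name. Exon lengths and overlaps came from GENCODE release 29, whose build may differ from that of the table, and promoter windows from RefSeq, build GRCh38.p14. A level of 3 fragments per library is 2.54 to 3.20 normalized counts and covers counting error only. Value columns left unused numbered 0.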

Additional observations from a re-analysis of the deposited data

How the results depend on the processing

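Alternatives were pseudocounts of 0.5 and 10, no filter, a filter at a mean of 100, scaling to the library total, quantile normalization, edgeR and DESeq2 on recovered reads, the replicate number as a block, and leaving out each library. Of the 119 called carriers, 84 kept their call and direction in each alternative that tested them, 35 lost the call in at least 1, and 0 changed sign. Scaling to the library total gave 2435 genes higher and 4176 lower over all genes (3721 and 3471 without it), 42 and 68 among the carriers, and 17 lost carrier calls. Without single libraries, 55 to 61 carriers were higher and 49 to 58 lower, and 3403 to 3605 of all genes were higher and 3180 to 3299 lower. EdgeR gave 59 higher and 61 lower carriers and DESeq2 59 and 62. Same-numbered libraries did not deviate together (r of -0.0452, 0.0117 and -0.0491 over genes, which are not independent replicates). These are deviations from means of 3 libraries, so they cannot settle whether the numbers pair the libraries. With the replicate block, 60 carriers were higher and 59 lower, against 59 and 60 without it, and the calls of 2 carriers were lost. In these libraries 3 fragments are 2.54 to 3.20 normalized counts, and SLC2A4, SLC5A4 and SLC11A1, with means near 10, had overlapping groups.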
